A study of Oryza sativa with 72 samples.

Results

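The 200 features described here are rows of a leaf RNA-seq count table whose abundance was lowest, in irrigated control plants of both leaf positions, on drought day 9. They were chosen on control libraries alone, from 55986 rows of which 45767 held a count in any library and 15123 reached a mean of 5 CPM in at least 1 control group. CPM is the count of a row per 1000000 counts of its library. For each row and leaf, the mean log2(CPM + 1) of the day 9 controls was set against the lowest control mean of the 5 other stages, and rows at least 0.8 lower in both leaves were kept. The 382 rows that met this threshold were ordered by the larger value of their leaves, lowest first, and the first 200 were taken. All control values below were therefore part of the choice and are given as description. The values of treated plants were not used in it, and the tests are confined to them.

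The plants were Oryza sativa cultivar IR64, grown singly in pots in a growth chamber. From 14 days after sowing, treated plants went through 9 days of severe drought, imposed by faster drainage of the pots, and had water restored for 6 days, and irrigation of control plants never stopped. Polyadenylated RNA was sequenced from the fully expanded latest leaf and from the second latest leaf, in treated and control plants, at drought days 0, 6 and 9 and at 2 h, 3 days and 6 days after rewatering. This gives 24 groups of 3 libraries each. Control plants carry the stage name of the treated plants they were collected with, so a day 9 control never met drought. The labels give the day of collection but not its hour, and they do not say whether replicates came from different plants. The p-values therefore cover only the spread from library to library, which may be technical.

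IR64 is a lowland indica rice that is widely grown and sensitive to drought. Rice leaves that lose water close their stomata, accumulate abscisic acid and change the abundance of many transcripts. Leaf transcripts also follow the daily light and temperature cycle and the age of the leaf, and irrigated plants collected at each stage serve as the reference for changes that treated and control plants share. The rows carry no gene identifier, so each is called by its place in the table, no function can be attached to it, and no sequence is shown.

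The total count was between 6370914 and 24192248 in 71 libraries, with a median of 13764577. The remaining library, treated latest leaf on day 9, replicate 2, held 1755 counts in all and 21 in the 200 rows, and it was left out, which leaves 2 libraries in that group. The other day 9 libraries held between 7979997 and 24192248 counts, so the low values there did not come with low totals. A count of 3 corresponded to 0.124 CPM in the deepest library and to 0.471 CPM in the shallowest. Of the 200 rows, 4 had 0 counts in at least 1 day 9 library, 33 had under 10 counts in at least 1, and 0 were at 0 in all of them.

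Day 9 stood apart from the other stages in the number of rows that met such a rule. When each stage in turn was set against the 5 others in control plants, 382 rows were low in both leaves on day 9, 9 on day 0, 0 on day 6, 1 at 2 h after rewatering, 0 at 3 days and 9 at 6 days. In treated plants the same count was 194 on day 9, 58 at 2 h, 3 on day 0, 2 on day 6, 0 at 3 days and 1 at 6 days. The lists of 382 control rows and 194 treated rows shared 148 rows, which is 38.7% of the control list and 76.3% of the treated list. Of all 15123 eligible rows, 1.28% were in the treated list.

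**Figure D1:**
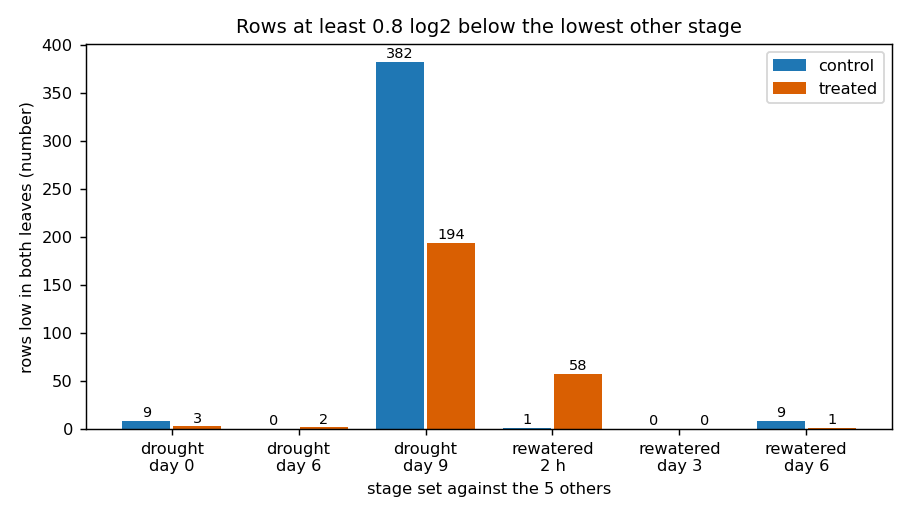
Number of rows (y axis) whose mean log2(CPM + 1) at the stage on the x axis was at least 0.8 below the lowest mean of the 5 other stages in both leaves, in control (blue) and treated (orange) plants. Day 9 holds 382 control and 194 treated rows, and the next highest bar is the 58 treated rows at 2 h after rewatering.

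The number of control rows depended on how CPM was scaled. The 15123 eligible rows as a whole were lower on day 9 in control plants, with a median day 9 difference of -0.31 in the latest leaf and -0.20 in the second latest leaf on the log2(CPM + 1) scale (day 9 mean minus the mean of the 5 other stages). With library sizes scaled by the trimmed mean of M-values (TMM), 198 rows met the rule in place of 382. Of those 198 rows, 186 were among the 200 described here. The treated list and its overlap with the control list were not recomputed with TMM. The last rows taken had larger-leaf values of -1.0196 (row 28329), -1.0177 (row 3851) and -1.009 (row 34285). The first rows left out had values of -1.0077 (row 21061), -1.0049 (row 41409) and -1.0045 (row 42782), so the list ends within a continuous range.

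As a set, the 200 rows had a lower median level in each usable day 9 library, treated or control, than in any library of another stage. Their median log2(CPM + 1) lay between 2.89 and 3.73 in the 11 day 9 libraries and between 4.68 and 5.83 in the 60 libraries of the other stages. In the latest leaf the group mean of this median was 3.23 ± 0.30 (SD, n = 3) in day 9 controls and 3.31 ± 0.47 (SD, n = 2) in day 9 treated plants. The second latest leaf had 3.38 ± 0.34 (SD, n = 3) in controls and 3.51 ± 0.21 (SD, n = 3) in treated plants. The day 9 medians of the arms overlapped in each leaf.

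The other 20 groups had mean values between 5.03 and 5.55. Day 6, the stage before, was at 5.24 ± 0.33 in controls and 5.36 ± 0.19 in treated plants in the latest leaf (SD, n = 3 each). At 2 h after rewatering, the stage that followed day 9, the latest leaf was at 5.39 ± 0.17 in controls and 5.19 ± 0.13 in treated plants (SD, n = 3 each). The second latest leaf at 2 h was at 5.49 ± 0.21 in controls and 5.29 ± 0.11 in treated plants (SD, n = 3 each). The lowest treated mean outside day 9 was 5.03 ± 0.31 (SD, n = 3), in the second latest leaf 6 days after rewatering. Together the rows held between 0.776% and 1.51% of all counts in a day 9 library and between 2.59% and 4.53% in any other library.

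**Figure D2:**
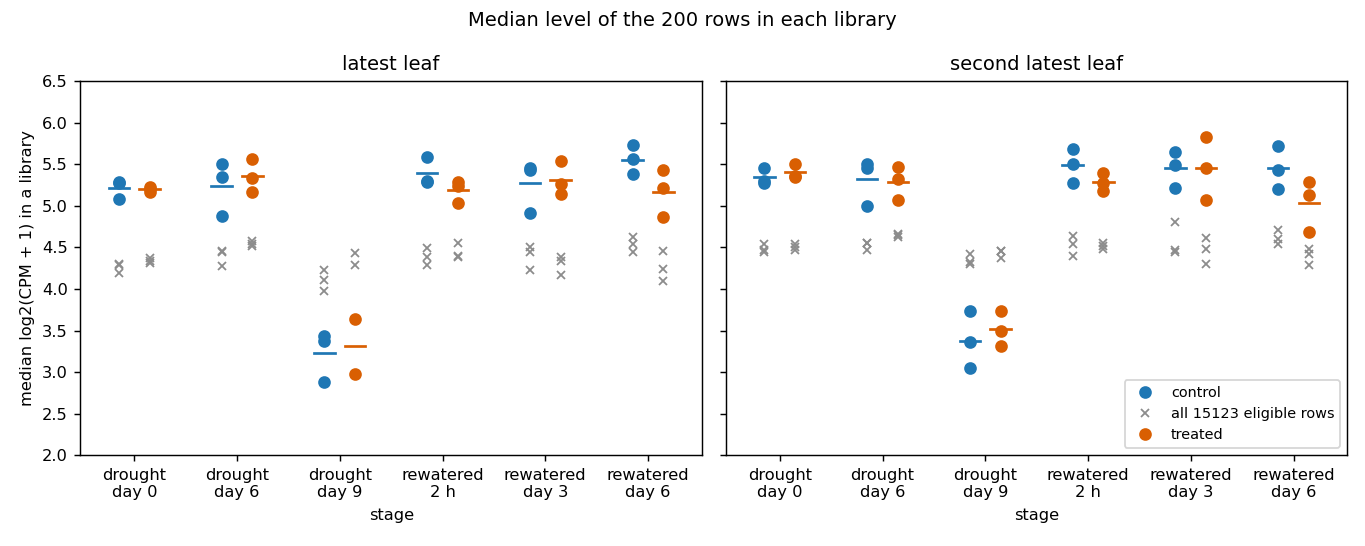
Median log2(CPM + 1) of the 200 rows in each library (circles, y axis) by stage (x axis), in control (blue) and treated (orange) plants, with group means as bars and the median of the 15123 eligible rows as grey crosses. The 11 day 9 libraries lie between 2.89 and 3.73, and the 60 others between 4.68 and 5.83.

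The libraries of a group were not equally low. Replicate 1 had the lowest median of the 200 rows in 4 of the 4 day 9 groups, 1 of which held 2 libraries. It was also the lowest library in 4 of the 4 groups on day 6 and at 6 days after rewatering, and in 3 of the 4 groups at 2 h. At 3 days after rewatering replicates 1 and 2 were each the lowest in 2 groups, and on day 0 replicate 2 was the lowest in 3 groups and replicate 1 in 1. The median of the eligible rows was also lowest in replicate 1 in every day 9 group except the control latest leaf. The same held in every group at 6 days after rewatering. On day 6 the eligible rows were lowest in replicate 1 in both control groups but in replicate 2 in both treated groups. In the treated second latest leaf at 2 h, replicate 1 was the lowest for the 200 rows (5.18) and the highest for eligible rows (4.55). The order was thus shared with the eligible rows in some groups and not in others. What the shared number stands for is not given in the labels, and its part in the day 9 values was not tested.

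Treated day 9 leaves were low in most of the rows that had been chosen on controls. Set against the lowest of the 5 other treated stages, 132 of the 200 rows (66.0%) were at least 0.8 lower in both treated leaves, beside 1.28% of the 15123 eligible rows. A value under 0 in both leaves, meaning day 9 was the lowest treated stage, was found for 185 rows (92.5%), beside 17.6% of eligible rows. The median of this value over the rows was -1.30 in the latest leaf and -1.14 in the second latest leaf, where eligible rows had medians of 0.21 and 0.17. Of the 182 rows that met the threshold but fell beyond the first 200, 16 (8.79%) were at least 0.8 lower in both treated leaves.

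Single libraries show the same separation. Every treated day 9 library lay below all 15 other treated libraries of the leaf for 156 of the 200 rows in the latest leaf, where 7.41% of eligible rows did so with 2 day 9 libraries. The same held for 158 rows in the second latest leaf, beside 4.64% of eligible rows. It held in both leaves for 138 rows, beside 2.92%. In control plants, where the choice was made, the counts were 187 in the latest leaf (18.3% of eligible rows), 196 in the second latest leaf (13.5%) and 185 in both (8.62%).

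The fit to treated libraries gave calls for nearly all of these rows. In edgeR's quasi-likelihood test of day 9 against the mean of the 5 other treated stages (adjusted p under 0.05, Benjamini-Hochberg over all rows tested), 182 of the 200 rows were lower in the latest leaf, beside 8.32% of the 20468 rows tested. A lower level was called for 184 rows in the second latest leaf, beside 8.66% of 20282. In both leaves 173 were lower, beside 5.09% of the 19906 rows tested in both. In at least 1 leaf 193 were lower, beside 2412 of those 19906 rows. EdgeR called 0 of the 200 higher in either leaf, with 0 at an unadjusted p under 0.05 and 0 called higher by DESeq2, where 11.6% of all rows were higher in the latest leaf and 10.6% in the second latest leaf. All 200 rows passed the filter on low counts. Of the eligible rows alone, 9.41% were lower in the latest leaf and 10.0% in the second latest leaf.

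The fitted log2 change of the rows had a median of -1.65 in the latest leaf, with quartiles at -2.53 and -1.21, and all rows tested had a median of 0.02. In the second latest leaf the median was -1.55, with quartiles at -2.42 and -1.13, and all rows tested had a median of -0.01. A call together with a change of at least 2-fold was found for 161 rows in the latest leaf and 160 in the second latest leaf. The share of all rows tested with such a call was not counted, so these 2-fold counts have no comparison. Of the 182 rows beyond the first 200, 117 were called lower in the latest leaf and 108 in the second latest leaf. Among these the median change was -0.81 and -0.70.

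Row 24319 came first in the order of the rule and had the deepest day 9 difference on the log2(CPM + 1) scale in both arms and leaves. In day 9 controls it had 0.395, 5.51 and 1.94 CPM in the latest leaf and 0.703, 3.74 and 9.12 CPM in the second latest leaf. In day 9 treated plants it had 0.221 and 19.6 CPM in the latest leaf and 0.329, 1.07 and 9.79 CPM in the second latest leaf. The 60 libraries of the other stages lay between 121 and 531 CPM, so no day 9 library overlapped them, while day 9 libraries of 1 group differed among themselves by more than 10-fold. The fitted change in treated plants was -5.00 ± 0.92 in the latest leaf (SE, edgeR adjusted p = 0.00129) and -6.29 ± 0.73 in the second latest leaf (SE, edgeR adjusted p = 1.32e-05). At 2 h after rewatering the treated libraries were back at 334, 383 and 458 CPM in the latest leaf and 269, 359 and 430 CPM in the second latest leaf.

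Row 22256 was as low with less scatter. Its day 9 controls had 0.889, 0.877 and 3.37 CPM in the latest leaf and 1.90, 4.51 and 9.68 CPM in the second latest leaf. Its day 9 treated libraries had 0.607 and 2.44 CPM in the latest leaf and 0.658, 1.84 and 2.57 CPM in the second latest leaf. The treated libraries of the other stages lay between 47.6 and 177 CPM, so the stages did not overlap. The fitted change was -6.05 ± 0.46 in the latest leaf (SE, edgeR adjusted p = 4.79e-07) and -5.90 ± 0.44 in the second latest leaf (SE, edgeR adjusted p = 2.04e-07). This row had regained 59.3, 47.6 and 84.2 CPM in the treated latest leaf by 2 h after rewatering, while the controls of that stage had 123, 126 and 130 CPM, above every treated library. The control values entered the choice, so that difference was not tested. Against treated day 6, edgeR called no change at 2 h in the latest leaf (log2 change -0.81, adjusted p = 0.0745). The second latest leaf was not called either (log2 change -0.40, edgeR adjusted p = 0.448).

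Rows 6463, 34307, 5675 and 47542, the others among the first 6 of the rule order, had no day 9 library above any library of another stage in either arm or leaf. Row 6463 had between 3.40 and 39.4 CPM in day 9 treated libraries and between 225 and 743 CPM at the other treated stages. Row 34307 had between 8.55 and 116 CPM in the former and between 252 and 1389 CPM in the latter. Row 5675 had between 0.717 and 5.79 CPM against 33.5 to 87.4 CPM. Row 47542 had between 0.497 and 5.56 CPM against 13.7 to 65.9 CPM, and edgeR called all 4 rows lower in both leaves.

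Abundant rows were in the list as well as scarce ones. Over the 30 control libraries of the other stages, the rows' mean CPM had a median of 42.8 and ran from 3.29 to 8990, and eligible rows had a median of 21.6. The most abundant was row 36. It had 2417, 2534 and 3689 CPM in the latest leaf of day 9 controls and 1756 and 2697 CPM in that of treated plants. Its second latest leaf had 3137, 3240 and 4025 CPM in controls and 2483, 2528 and 2617 CPM in treated plants. The other treated libraries lay between 5291 and 10361 CPM in the latest leaf and between 4500 and 10133 CPM in the second latest leaf, with no overlap. The fitted change in treated plants was -1.76 ± 0.22 (SE, edgeR adjusted p = 4.69e-05) in the latest leaf and -1.39 ± 0.22 (SE, edgeR adjusted p = 0.000222) in the second latest leaf.

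Row 27640, the third in abundance, was low on day 9 and was above its day 6 level at 2 h in treated plants. On day 9 its treated libraries had 987 and 1742 CPM in the latest leaf and 975, 1306 and 1688 CPM in the second latest leaf. On day 6 they had 2987, 2996 and 3440 CPM in the latest leaf and 2346, 3171 and 3461 CPM in the second latest leaf. At 2 h after rewatering they had 4632, 4509 and 4468 CPM in the latest leaf and 4243, 4796 and 4876 CPM in the second latest leaf, above every day 6 library. EdgeR called the rise from day 6 to 2 h in the latest leaf (log2 change 0.66 ± 0.21, SE, adjusted p = 0.0357) and in the second latest leaf (log2 change 0.81 ± 0.22, SE, adjusted p = 0.0161). Such a rise was called in both leaves for 12 of the 200 rows (6.0%), beside 8.73% of all rows tested in both.

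The other rows with the highest abundance were 27559, 48546, 4298 and 48996. EdgeR called each lower on day 9 in both treated leaves, with log2 changes of -1.69 and -1.32 for row 27559, -1.70 and -1.32 for row 48546, -2.59 and -2.41 for row 4298, and -1.62 and -1.76 for row 48996, latest leaf first. Row 48996 alone among these 4 overlapped the other stages in treated plants. Its day 9 libraries of the latest leaf had 263 and 374 CPM and the lowest library of another stage had 370 CPM. Without day 9 replicate 1 of the latest leaf the change of this row was -1.49 and no longer called.

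Ordered by the shallower fitted change of their treated leaves, the rows called in both that came first were 22256, 8471, 24319, 33694, 19456 and 6463. Row 8471 had 0.0552 and 1.40 CPM in the treated latest leaf on day 9 and 0.110, 0.306 and 0.858 CPM in the second latest leaf, where the lowest values rest on 1 and 2 counts. Its other treated libraries lay between 6.81 and 114 CPM, and edgeR called it lower in the latest leaf (adjusted p = 0.000926) and in the second latest leaf (adjusted p = 9.74e-05). Row 33694 had 0.110 and 0.0452 CPM in the latest leaf and 0.164, 0 and 0 CPM in the second latest leaf, at or below the level of 3 counts, so no fold is given and its place in this order is uncertain, and edgeR called it lower in both leaves (adjusted p = 0.000102 and 0.00221). In day 9 controls of the latest leaf, row 19456 had between 14.5 and 233 CPM and overlapped the other stages, which began at 59.0 CPM. In treated plants on day 9 it had between 3.48 and 4.08 CPM in the latest leaf. The treated second latest leaf had between 0.688 and 1.10 CPM of this row, and other stages there went down to 0.747 CPM and overlapped. With either treated day 9 library of the latest leaf left out, the fitted change of row 19456 in that leaf was -5.84 and -5.46.

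**Figure D3:**
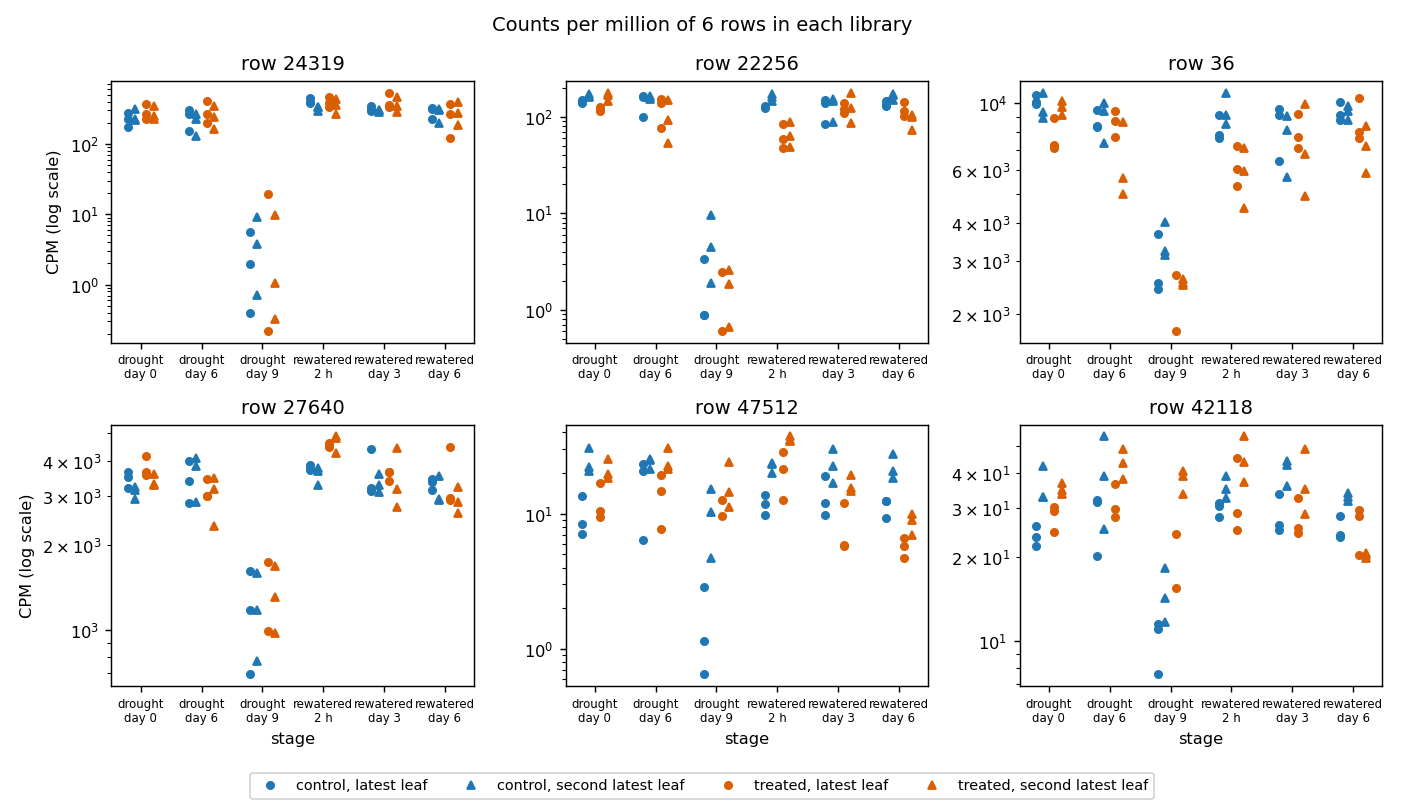
CPM on a log axis (y) of 6 rows in each library by stage (x), in control (blue) and treated (orange) plants, latest leaf as circles and second latest leaf as triangles. Rows 24319, 22256, 36 and 27640 are low on day 9 in both arms, while rows 47512 and 42118 are low in day 9 controls and overlap the other stages in treated plants.

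The depth of the day 9 difference varied over the list in each arm and leaf. On the log2(CPM + 1) scale, day 9 minus the mean of the 5 other stages ran from -6.58 to -1.12 in the control latest leaf and from -5.95 to 0.05 in the treated latest leaf. In the second latest leaf it ran from -5.93 to -1.10 in controls and from -6.57 to 0.12 in treated plants. Medians were -1.87 and -1.68 in the control leaves and -1.62 and -1.49 in the treated leaves, latest leaf first. All 200 rows were at least 2-fold lower in both control leaves, where they had been chosen, and 149 were so in both treated leaves. A difference of at least 4-fold in both arms and both leaves was found for 44 rows, and of at least 8-fold for 13. Per treated leaf, latest first, 163 and 161 rows were at least 2-fold lower, beside 563 and 376 of 15123 eligible rows. At least 4-fold lower were 62 and 62, beside 97 and 73, and at least 8-fold lower 23 and 19, beside 32 and 20. The 13 rows were 24319, 6463, 22256, 34307, 5675, 47542, 8471, 28330, 17756, 5674, 37565, 16920 and 40771.

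Rows that were deep in controls tended to be deep in treated plants. Across the 200 rows, the treated and control differences had a Pearson r of 0.776 (Spearman rho 0.625) in the latest leaf and of 0.881 (rho 0.751) in the second latest leaf, from separate libraries. Rows are not independent replicates, and within an arm all rows share the same day 9 libraries. On the log2(CPM + 1) scale a scarce row has little room to fall in either arm. The part of abundance in these r values was not tested. Between the leaves of treated plants r was 0.912 (rho 0.854). The control leaves are not compared this way, since the rule asked for low values in both. The treated difference was the smaller of the pair for 145 rows in the latest leaf and 138 in the second latest leaf. The median of treated minus control over all 200 rows was 0.28 and 0.20. Because the rows were chosen for low control values, that order is partly set by the choice and was not tested.

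**Figure D4:**
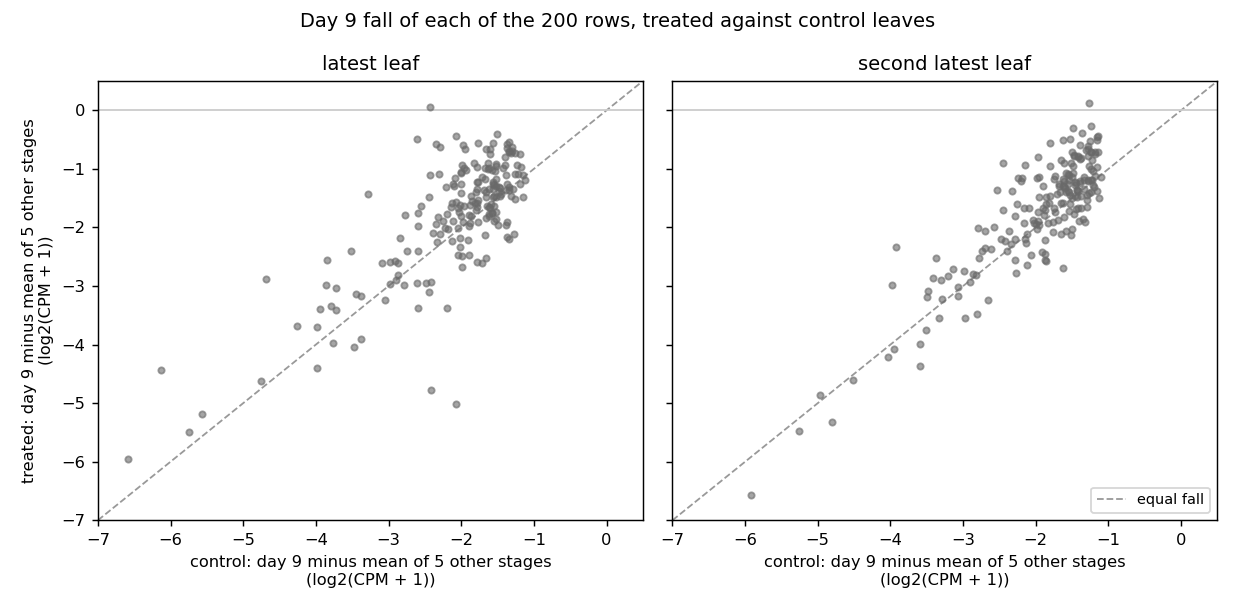
Day 9 difference of each of the 200 rows in treated plants (y axis) against control plants (x axis), as day 9 mean minus the mean of the 5 other stages in log2(CPM + 1), by leaf, with the line of equal difference dashed. Points follow the line (r = 0.776 and 0.881), and 145 and 138 of 200 lie above it.

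In absolute level on day 9, treated minus control differences were small beside the differences between stages. The median over the 200 rows was 0.21 in the latest leaf, with 128 rows higher in treated plants, where eligible rows had a median of 0.26. In the second latest leaf it was 0.07, with 111 rows higher, and eligible rows had a median of 0.07. At 2 h after rewatering the rows were on the other side, with medians of -0.15 and -0.28 and with 65 and 55 of 200 higher in treated plants, latest leaf first. Eligible rows had medians of 0.02 and -0.07 at that stage. At 6 days after rewatering the medians were -0.31 and -0.36, with 36 and 22 of 200 higher in treated plants, and eligible rows were at -0.26 and -0.21. At 3 days the medians were 0.00 and -0.02. The control values entered the choice, so these comparisons carry no test.

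The step from day 6 to day 9 was tested within treated plants, which were under drought at both times. Irrigated controls made a like step in the mean library median of these rows, which were chosen on them. It went from 5.24 to 3.23 in the latest leaf and from 5.32 to 3.38 in the second latest leaf. The part of drought in the treated step was not tested. EdgeR called 168 of the 200 rows lower on day 9 than on day 6 in the latest leaf, beside 4.06% of all rows tested, and 158 in the second latest leaf, beside 4.16% (eligible rows 4.82% and 4.8%). In both leaves 139 were lower, beside 2.17%, and 0 were higher in either leaf, also by DESeq2 or at an unadjusted p under 0.05 (all rows 5.37% and 4.73%). The median log2 change was -1.61 in the latest leaf and -1.39 in the second latest leaf, against 0.03 and 0.00 for all rows tested. Without day 9 replicate 1 of the latest leaf, which leaves 1 library in that group, the count there was 98.

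Most of the rows were higher at the 2 h collection than on day 9. Between these collections, edgeR called 177 of the 200 rows higher in the treated latest leaf, beside 10.6% of all rows tested, and 167 in the second latest leaf, beside 14.7% (eligible rows 12.4% and 17.3%). In both leaves 160 were higher, beside 8.25%, and 0 were lower, also by DESeq2 or at an unadjusted p under 0.05 (all rows 12% and 13.8%). The median log2 change was 1.51 in each leaf, while all rows tested had medians of 0.00 and 0.01. Irrigated controls of the same stages, which were never rewatered after drought, went from 3.23 to 5.39 in the latest leaf and from 3.38 to 5.49 in the second latest leaf in the mean library median of these rows. Rewatering and the passage between the collections therefore cannot be told apart for the treated rise of the rows.

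Against day 6, the treated leaves at 2 h had no common shift in these rows. The median log2 change was -0.03 in the latest leaf and 0.07 in the second latest leaf. EdgeR called 18 rows lower and 13 higher in the latest leaf, beside 8.27% and 10.9% of all rows tested. For the second latest leaf it called 12 lower and 22 higher, beside 9.48% and 11.9%. In both leaves 8 of the 200 rows were called lower (4.0%), beside 5.26% of all rows tested in both. Those called higher in both were 12 (6.0%), beside 8.73%. The shares of the 200 rows, in each leaf and in both, were near or below those of the table. These counts moved when single libraries were left out. Leaving out 1 treated library at a time gave 4 to 22 rows lower and 6 to 17 higher in the latest leaf, and 4 to 15 lower and 10 to 27 higher in the second latest leaf.

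**Figure D5:**
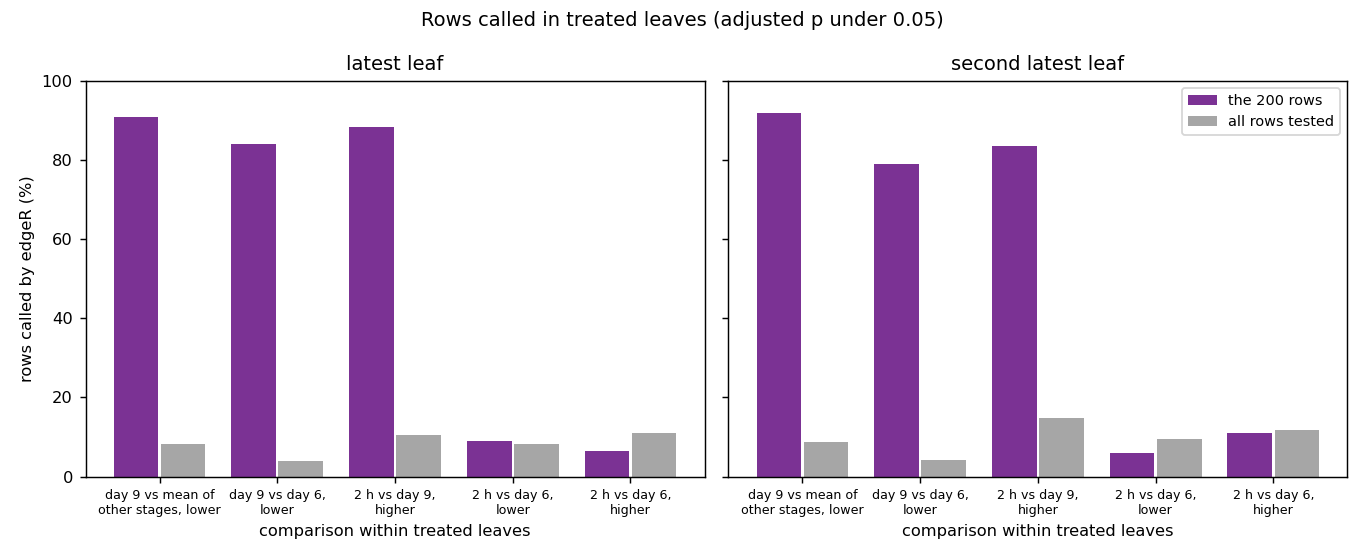
Percent of the 200 rows (purple) and of all rows tested (grey) called by edgeR at an adjusted p under 0.05 (y axis) in 5 comparisons within treated plants (x axis), by leaf. The rows stand at 79.0% to 92.0% in the first 3 comparisons and at 6.0% to 11.0% in the comparisons of 2 h with day 6, where the table stands at 8.27% to 11.9%.

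The 12 rows higher at 2 h than on day 6 in both treated leaves were 29334, 55456, 37001, 27640, 14506, 6015, 6464, 3852, 29112, 25996, 23776 and 3851. Row 37001 had the largest change, 2.37 in the latest leaf (edgeR adjusted p = 0.0281) and 2.72 in the second latest leaf (edgeR adjusted p = 0.00657). Its treated second latest leaf went from 3.67, 13.3 and 20.7 CPM on day 6 to 5.32, 2.37 and 2.00 CPM on day 9 and to 63.7, 72.1 and 84.0 CPM at 2 h. Day 9 overlapped day 6 at the lowest day 6 library, and the 2 h libraries were above those of both stages. The adjacent rows 3851 and 3852 moved alike. Row 3851 in the treated second latest leaf had 155, 144 and 146 CPM on day 6, 44.1, 61.0 and 72.3 CPM on day 9 and 293, 301 and 319 CPM at 2 h, with no overlap between the stages.

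The 8 rows lower at 2 h than on day 6 in both treated leaves were 663, 48436, 31955, 44348, 32068, 33906, 51097 and 4028. Row 51097 had the largest change, -2.17 in the latest leaf (edgeR adjusted p = 0.0444) and -2.06 in the second latest leaf (edgeR adjusted p = 0.0161). Row 44348 changed by -1.94 (edgeR adjusted p = 0.00222) and -1.37 (edgeR adjusted p = 0.0161). In the treated latest leaf row 44348 had 106, 112 and 94.7 CPM on day 6, 8.77 and 19.9 CPM on day 9 and 24.6, 25.4 and 24.7 CPM at 2 h. Its 2 h libraries were above both day 9 libraries and well below those of day 6. The rise from day 9 to 2 h in this leaf was not called (log2 change 0.71, edgeR adjusted p = 0.2265). The controls of the latest leaf at 2 h had 60.0, 84.5 and 120 CPM, above every treated library of that stage. Rows 663 and 31955 were called higher at 2 h than on day 9 in both treated leaves, and row 44348 in the second latest leaf only. Rows 48436, 32068, 33906, 51097 and 4028 were called higher in neither leaf.

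Of the 200 rows, 68 did not reach the threshold of the rule in both treated leaves. Among these, 66 were still below the mean of the other treated stages in both leaves, 18 of them at least 2-fold. In the leaf with the larger value, the lowest other treated stage was 6 days after rewatering for 34 of the 68 rows and 2 h after rewatering for 18. It was day 0 for 8, day 6 for 4 and 3 days after rewatering for 4.

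A few rows were low on day 9 in controls with little sign of it in treated plants. Row 47512 had 1.14, 2.88 and 0.648 CPM in the latest leaf of day 9 controls, below all 15 other controls, which began at 6.42 CPM. In treated plants the day 9 libraries had 12.6 and 9.62 CPM, within the range of 4.68 to 28.6 CPM of the other stages. In the treated second latest leaf it had 14.4, 24.2 and 11.2 CPM on day 9, within 7.02 to 37.4 CPM. The fitted change was 0.10 ± 0.32 (SE, edgeR adjusted p = 0.866) in the latest leaf and -0.13 ± 0.20 (SE, edgeR adjusted p = 0.717) in the second latest leaf. Its sign turned to -0.23 in the latest leaf without day 9 replicate 1 and to 0.13 in the second latest leaf without day 9 replicate 3.

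Row 42118 differed between the treated leaves in its overlap with other stages. In the latest leaf the treated day 9 libraries had 15.5 and 24.2 CPM, of which the first was below the other stages at 20.4 to 45.2 CPM. In the second latest leaf they had 33.8, 39.0 and 40.7 CPM, inside the range of 19.9 to 54.1 CPM. Day 9 controls had 7.61, 11.5 and 11.1 CPM in the latest leaf and 11.7, 14.2 and 18.3 CPM in the second latest leaf, below all treated day 9 libraries of the same leaf. The fitted change in treated plants was -0.50 ± 0.22 (SE, edgeR adjusted p = 0.12) and 0.21 ± 0.13 (SE, edgeR adjusted p = 0.31). The call in the latest leaf was made when low counts were not filtered, when control libraries entered the fit, or without 1 library of 6 days after rewatering.

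Rows 4603, 28296, 7029 and 22693 complete the 6 rows whose deeper fitted change of the treated leaves was the least negative. Row 4603 was called lower in both leaves by edgeR, with changes of -0.59 ± 0.13 (SE, adjusted p = 0.00544) and -0.40 ± 0.13 (SE, adjusted p = 0.0367). The call in the latest leaf was lost without either day 9 library, and the call in the second latest leaf was lost in 12 alternatives, with changes between -0.40 and -0.28. Rows 28296, 7029 and 22693 were called in neither leaf, with changes between -0.62 and -0.41 and treated day 9 libraries that overlapped the other stages. Row 7029 was called in the second latest leaf in 6 alternatives, with changes between -0.66 and -0.59. Row 22693 was called in the latest leaf without day 9 replicate 3 (-1.32) and in the second latest leaf without replicate 2 of 3 days after rewatering (-0.62).

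A difference between the leaves in the treated day 9 change was not called in the main fit, which does not show that the leaves were alike. The latest leaf had 2 libraries on day 9. The fit took the leaves as separate samples, and the labels do not say whether both leaves of a number came from 1 plant. The test of that difference, added after the data had been seen, called 0 of 21204 rows in edgeR, with 936 rows at an unadjusted p under 0.05. Of the 200 rows, 29 were at an unadjusted p under 0.05, a larger share than among all rows tested. Their median difference, latest minus second latest leaf, was -0.10 and ran from -2.18 to 1.34. Without the filter on low counts, 18 rows were called, of which 2 of the 200 had the deeper change in the latest leaf and 1 in the second latest leaf.

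Some of the rows were neighbours in the table, whose order was not described in the sources used here. There were 25 rows next to another of the 200, in 11 runs, and 140 eligible rows next to one of the 200 were not among them. The longest run was of 4 rows, 5674 to 5677. On day 9 in the treated second latest leaf, row 5674 had 1.92, 1.91 and 8.93 CPM, row 5676 had 2.14, 3.67 and 3.93 CPM and row 5677 had 10.9, 18.5 and 45.7 CPM. At 2 h these rows had at least 60.1, 16.6 and 109 CPM in the same leaf, so the day 9 libraries of each lay below its 2 h libraries. Reads shared between near-identical neighbours could not be examined without identifiers.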

How the data were processed

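RNA-seq of polyadenylated RNA from 72 IR64 rice leaf libraries was used. The authors deposited raw counts per row in a single table, with STAR, featureCounts 2.0.0 and the IRGSP-1.0 build named in the submitters' processing notes, from directional libraries per the labels' protocols. The strand setting of the counting is not given in the sources used here, and rows carry no identifier. Columns were matched to libraries by the column names in the labels.

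The members and lists were chosen with earlier results of these data known. CPM was the count divided by the column total, with a pseudocount of 1 on the log2 scale. Libraries under 100000 counts were left out. Counts of treated libraries were fitted per leaf (17 and 18 libraries, 6 groups) with edgeR 4.0.16 in R 4.3.3 (TMM, filterByExpr, quasi-likelihood test), adjusted over all rows tested, and the script was tested on simulated data. Rows named were the first 6 in rule order, the 6 most abundant, the 6 with the lowest change in treated plants by the larger leaf value among rows called in both leaves, the 6 with the highest by the smaller leaf value, and the 3 rows on either side of the list's end. Rows called at 2 h against day 6 in both leaves, the 13 rows at least 8-fold lower and the neighbours were named after their values were seen. Alternatives were relative log expression factors, no low-count filter, DESeq2 1.42.0, a replicate block, control libraries in the fit, the near-empty library kept, a 2-fold minimum, other ways to choose the rows, and leaving out each library. Of 70 replicate pairs 0 were identical.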

Additional observations from a re-analysis of the deposited data

How the results depend on the processing

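The rule kept 198 rows with TMM-scaled CPM, 456 with a pseudocount of 0.5, 406 and 323 with minimum means of 1 and 10 CPM, and 316 to 444 without a day 9 control library, in place of 382. With all 382 rows in place of 200, rows called lower on day 9 than the other treated stages numbered 299 and 292 (latest leaf first), rows higher at 2 h than day 9 274 and 264, and rows lower and higher at 2 h than day 6 40 and 26 in the latest leaf and 28 and 45 in the second latest leaf. Without the low-count filter, 31 rows were lower and 26 higher at 2 h than day 6 in the latest leaf, and the leaf difference called 2 rows lower and 1 higher in the latest leaf. With a 2-fold minimum, 4 rows of the latest leaf and 10 of the second were higher at 2 h than day 6, and 5 of the second were lower. The other alternatives, DESeq2 included, left every count within 1.5 times its main value.

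Leaving out single libraries gave 140 to 186 and 170 to 190 rows lower on day 9 than the other stages, 98 to 175 and 128 to 164 lower than day 6, and 135 to 180 and 149 to 171 higher at 2 h than day 9, latest leaf first. At 2 h against day 6 it gave 6 to 17 and 10 to 27 higher and 4 to 22 and 4 to 15 lower. The 98 came without day 9 replicate 1. At 2 h against day 6 in the latest leaf, rows lower were 9 and 7 without day 6 replicates 2 and 3 and 4 without 2 h replicate 2, and rows higher were 6 without day 6 replicate 1. In the second latest leaf, rows lower were 7 and 6 without day 6 replicates 2 and 3 and 6 and 4 without 2 h replicates 1 and 2, and rows higher were 10 without day 6 replicate 1 and 12 without 2 h replicate 3. A lone day 9 library was assumed to vary like the other groups. Without a day 9 library, row 47512 ran from -0.227 to 0.32 in the latest leaf and from -0.465 to 0.134 in the second latest leaf, and the cause was not tested.

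Over all rows that passed the low-count filter, same-numbered treated libraries had correlations of -0.503 to 0.428 in their deviations from group means. The 3 pairs of day 0 and day 6 in the second latest leaf had 0.127 to 0.195. Those of 3 and 6 days after rewatering had -0.472 to -0.091 in the latest leaf and -0.503 to -0.002 in the second. Most stage pairs were mixed in sign, and the labels state no pairing, so the numbers were not taken to pair libraries. With the replicate block, 179 and 187 rows were lower on day 9 than the other stages, 169 and 160 lower than day 6, and 171 and 171 higher at 2 h than day 9.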
